A study of Homo sapiens with 12 samples.

Results

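Semaphorins are guidance ligands, and plexins and neuropilins are the receptors that read them. The family was taken from the count table by gene symbol as every semaphorin of classes 3 to 7, every plexin and both neuropilins, which gave 31 of the 60666 genes in the table: 20 semaphorins, 9 plexins and 2 neuropilins. The cells were HT1376, an established human bladder cancer line, in the form of 2 single-cell clones. HT1376 CT, which the labels call wild type, is a CRISPR control clone that received a guide against luciferase. HT1376 FOXP3 KO is a clone in which exon 2 of FOXP3, a transcription factor best known from regulatory T cells, was targeted by CRISPR. Each line was sequenced untreated and after IFNγ at 100 ng/mL for 48 hours, with 3 libraries per group numbered 11, 12 and 13 in all 4 groups. Each line is 1 clone, so differences between clones and the effect of the FOXP3 deletion cannot be told apart.

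Class 3 semaphorins are secreted and mostly bind a neuropilin, which holds the ligand while a plexin carries the signal into the cell. SEMA3E is the best known exception, since it binds PLXND1 without a neuropilin. Classes 4, 5 and 6 span the membrane and SEMA7A is anchored to it by a lipid, and these bind plexins directly. The plexin tail acts on small GTPases of the R-Ras, M-Ras and Rap type, and through them on the cytoskeleton and on integrin adhesion. In carcinomas the family is known for its part in cell migration and in the growth of vessels and nerves.

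The libraries held 4490684 to 39270042 counts, with a median of 15551201.5. Values are CPM, that is counts scaled to the size of the library, with edgeR's TMM factors over all 12 libraries, and are given as the mean ± SD of 3 libraries, and 3 counts in a library correspond to 0.0788 to 0.692 CPM. FOXP3 had 2 counts over the 6 CT libraries and 6 counts over the 6 FOXP3 KO libraries, with at most 3 in any of them, so the targeted transcript was too low to check the labels. Urothelial and epithelial keratins were high in all 4 groups (KRT8 averaged 1150 to 1203 CPM and KRT18 1122 to 1505 CPM), while the uroplakin UPK3A was at 0 in all of them. In bulk RNA, fewer cells that express a gene and less RNA per cell cannot be told apart.

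The semaphorin pool was smaller in FOXP3 KO than in CT, and its make-up differed more than its size. Per kilobase of exon, a scale on which genes can be compared, the 20 semaphorins summed to 95.4 ± 2.39 normalized CPM per kilobase in CT, 108.1 ± 3.96 in CT with IFNγ, 82.9 ± 4.88 in FOXP3 KO and 80.1 ± 5.51 in FOXP3 KO with IFNγ. Every CT library was above every FOXP3 KO library, the closest being 93.1 in CT and 88.1 in FOXP3 KO without IFNγ. Class 3 made up most of the pool in CT, at 69.4 ± 4.08 CPM per kilobase, and only a minor part in FOXP3 KO, at 19.5 ± 1.54. Class 5 went the other way, from 5.51 ± 1.16 in CT to 45.2 ± 1.42 in FOXP3 KO. In CT, SEMA3C held 35.7% of the semaphorin sum and SEMA3A 26.1%, followed by SEMA3D at 9.20%. In FOXP3 KO, SEMA5A alone held 54.3%, SEMA3C 19.0% and SEMA6A 6.46%, while SEMA3A was at 0.0441%.

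The receptor pool kept its leading genes. The 11 receptors summed to 46.1 ± 2.20 CPM per kilobase in CT, 37.2 ± 1.38 in CT with IFNγ, 48.8 ± 2.53 in FOXP3 KO and 48.8 ± 6.33 in FOXP3 KO with IFNγ. PLXNB2, the receptor of SEMA4C, and PLXNA2, a receptor for class 6 semaphorins, were the 2 highest receptors in every group. PLXNB2 was first in both untreated groups and PLXNA2 in both groups with IFNγ. Their order is not secure: PLXNB2 was at 14.2 ± 1.46 and PLXNA2 at 13.9 ± 0.735 CPM per kilobase in FOXP3 KO, closer than their spread, and dividing by the longest transcript in place of the exon union turned that order. The plot of pool make-up shows the classes in each library.

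**Figure D1:**
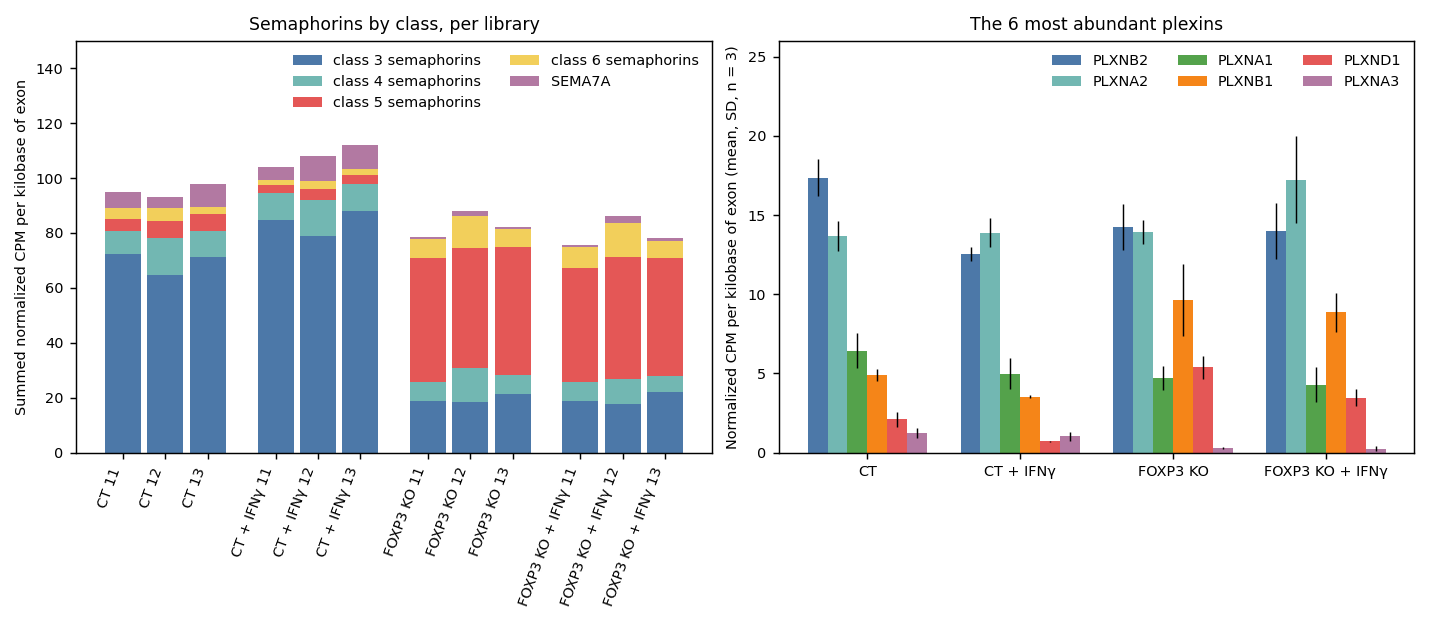
Left, summed normalized CPM per kilobase of exon for each semaphorin class, 1 stacked bar per library (the number after the group name is the replicate number). Right, the mean normalized CPM per kilobase of the 6 most abundant plexins in each group, with the SD of 3 libraries as bars. Class 3 averaged 69.4 in CT and 19.5 in FOXP3 KO, class 5 averaged 5.51 and 45.2, and PLXNB2 and PLXNA2 led the plexins in every group.

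The first comparison asked which of these genes differed between FOXP3 KO and CT. In untreated cells 18 of the 30 members tested passed edgeR's quasi-likelihood test with Benjamini-Hochberg adjustment over all genes, 9 higher in FOXP3 KO (NRP2, PLXNB1, PLXND1, SEMA3E, SEMA3F, SEMA5A, SEMA5B, SEMA6A and SEMA6D) and 9 lower (NRP1, PLXNA3, PLXNA4, SEMA3A, SEMA3C, SEMA3D, SEMA4A, SEMA6B and SEMA7A). Over all 25320 genes tested, 14.0% were called higher and 18.2% lower. Under IFNγ 19 of 30 passed, 8 higher and 11 lower, where 13.2% and 15.7% of all genes were called. The 8 were those higher in untreated cells without SEMA5B, and the 11 were those lower in untreated cells plus SEMA3B and SEMA4B. Adding a limit of 2 on the absolute log2 fold change left 14 members in untreated cells, against 12.3% of all genes, and 15 under IFNγ, against 12.1%. The median absolute log2 fold change of the tested members was 2.21 in untreated cells and 2.09 under IFNγ, against 0.63 and 0.65 over all genes tested. Ligands and receptors were called at like shares. Among ligands 6 of 20 were higher and 6 lower in untreated cells, and 5 and 8 under IFNγ, while 3 of 10 tested receptors were higher and 3 lower in both.

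**Figure D2:**
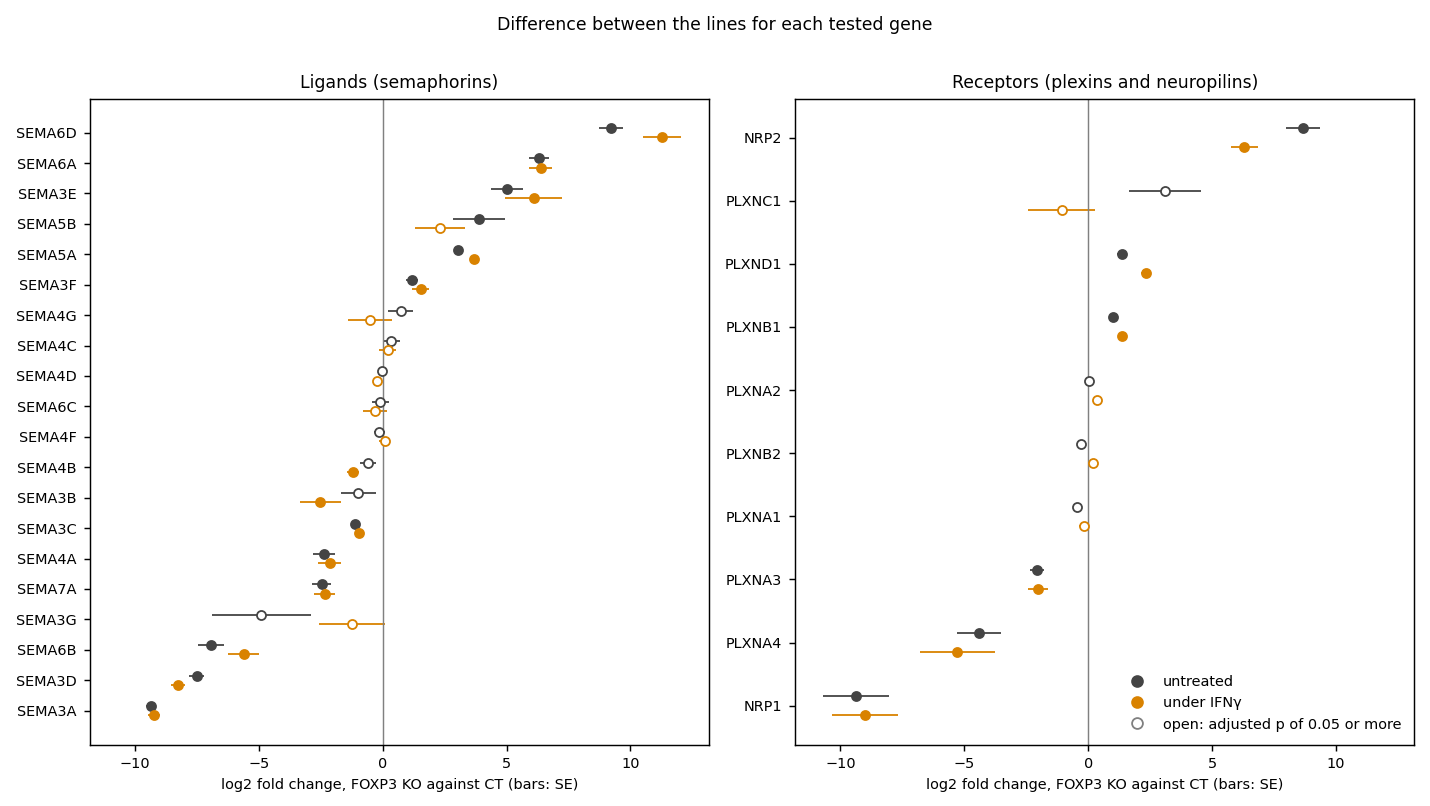
The log2 fold change of FOXP3 KO against CT for each tested ligand (left) and receptor (right), in untreated cells and under IFNγ. Bars are an approximate SE, computed from the log2 fold change and edgeR's F statistic. Filled points have an adjusted p under 0.05. SEMA3A, SEMA3D, SEMA6B and NRP1 lie at the low end, and SEMA6D, SEMA6A and NRP2 at the high end. Values of genes with few or no counts in 1 line depend on the prior count of the fit.

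SEMA3A, the classical axon repellent, which binds NRP1, lies on chromosome 7 (hg38, chr7:83955777-84492724, minus strand). It was at 270, 209 and 214 CPM in the CT libraries 11, 12 and 13, and at 298, 291 and 296 CPM in those with IFNγ. In FOXP3 KO it was at 0.344, 0.269 and 0.403 CPM, and with IFNγ at 0.670, 0.642 and 0.292 CPM. The lowest CT library was thus far above the highest FOXP3 KO library. The log2 fold change was -9.34 ± 0.210 (SE) in untreated cells, with an adjusted p of 2.02e-09 by edgeR's quasi-likelihood test, and -9.23 ± 0.247 under IFNγ, with 9.76e-09.

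SEMA3D, a secreted relative encoded next to SEMA3A (chr7:84995553-85187056, minus strand), followed the same pattern. It was at 54.9, 75.8 and 86.6 CPM in CT and at 120, 129 and 178 CPM in CT with IFNγ. In FOXP3 KO it was at 0.215, 0.627 and 0.461 CPM, and with IFNγ at 0.536, 0.214 and 0.486 CPM. No library of one line reached into the range of the other. The log2 fold changes were -7.50 ± 0.302 in untreated cells (adjusted p 4.51e-08, edgeR) and -8.25 ± 0.271 under IFNγ (adjusted p 1.59e-08, edgeR).

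SEMA3C, another secreted ligand of the same chromosome arm, known to bind both neuropilins, fell less. It was at 212, 190 and 221 CPM in CT, 228, 184 and 202 CPM in CT with IFNγ, 96.2, 82.5 and 109 CPM in FOXP3 KO, and 99.5, 91.9 and 114 CPM in FOXP3 KO with IFNγ. The lines did not overlap, and SEMA3C remained abundant in both. Its log2 fold change was -1.11 ± 0.125 in untreated cells (adjusted p 6.20e-05, edgeR) and -0.97 ± 0.126 under IFNγ (adjusted p 1.75e-04, edgeR).

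The lower group also held ligands of classes 4, 6 and 7. SEMA6B, a membrane ligand of class A plexins, was at 17.1, 18.2 and 11.0 CPM in CT and at 7.08, 9.92 and 7.38 CPM with IFNγ, and had only 6 counts over the 3 FOXP3 KO libraries and 8 with IFNγ. Of the 6 FOXP3 KO libraries 2 had no count. The ratio of CT to FOXP3 KO from the summed counts was 119.9, with an exact 95% counting interval of 54.9 to 327.7, and 52.5 (26.3 to 123.0) under IFNγ. The fitted log2 fold change was -6.93 in untreated cells and -6.10 without FOXP3 KO replicate 11 or -7.54 without FOXP3 KO replicate 12. Under IFNγ it was -5.62, and -7.12 or -4.95 without FOXP3 KO + IFNγ replicate 11 or 13.

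SEMA7A, the lipid-anchored ligand of PLXNC1 and of integrins, was at 22.9, 15.7 and 31.5 CPM in CT and at 17.8, 34.4 and 33.5 CPM with IFNγ. In FOXP3 KO it was at 2.28, 7.25 and 3.69 CPM, and with IFNγ at 2.81, 10.3 and 3.99 CPM, replicate 12 being highest in both. Every CT library exceeded every FOXP3 KO library. The log2 fold changes were -2.46 ± 0.382 (adjusted p 5.63e-04, edgeR) and -2.34 ± 0.432 (adjusted p 0.00190, edgeR), the latter moving to -3.00 without FOXP3 KO + IFNγ replicate 12.

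SEMA4A, a class 4 ligand studied mainly on immune cells, was at 4.79, 3.97 and 4.60 CPM in CT, 4.56, 5.31 and 2.46 CPM in CT with IFNγ, 1.33, 0.179 and 0.864 CPM in FOXP3 KO, and 1.07, 0.855 and 0.713 CPM in FOXP3 KO with IFNγ. The lines did not overlap, and the log2 fold changes were -2.37 ± 0.462 (adjusted p 0.00257, edgeR) and -2.15 ± 0.447 (adjusted p 0.00402, edgeR). SEMA4B, another class 4 ligand, was at 20.9, 45.0 and 20.8 CPM in CT and 13.8, 27.8 and 15.4 CPM in FOXP3 KO, which overlapped, and at 32.2, 48.5 and 30.3 CPM against 12.5, 20.3 and 13.5 CPM under IFNγ, which did not. Replicate 12 was the highest library for SEMA4B in all 4 groups. The log2 fold change was -0.59 ± 0.333 in untreated cells (adjusted p 0.203, edgeR), which passed with replicate number as a block (-0.56, adjusted p 0.00186), and -1.21 ± 0.244 under IFNγ (adjusted p 0.00321, edgeR).

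SEMA3B, a secreted ligand, was low throughout, at 0.759, 1.35 and 0.657 CPM in CT, 0.873, 3.69 and 0.671 CPM in CT with IFNγ, 0.602, 0.716 and 0.0576 CPM in FOXP3 KO, and 0.134, 0.321 and 0.324 CPM in FOXP3 KO with IFNγ. Its call under IFNγ (log2 fold change -2.51 ± 0.840, adjusted p 0.0447, edgeR) rested on single libraries: without CT + IFNγ replicate 12 the value was -1.47 with an adjusted p of 0.191, it was 0.129, 0.0629 and 0.0918 without FOXP3 KO + IFNγ replicate 11, 12 or 13, and it was 0.0518 with replicate number as a block.

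Among the ligands that were higher in FOXP3 KO, SEMA5A was the most abundant. It is a membrane ligand with thrombospondin repeats that binds PLXNB3 (chr5:9035033-9546075, minus strand). It was at 51.1, 76.5 and 75.3 CPM in CT, 36.3, 51.0 and 40.1 CPM in CT with IFNγ, 551, 538 and 575 CPM in FOXP3 KO, and 510, 546 and 525 CPM in FOXP3 KO with IFNγ. The lines were widely separated, with little spread among the FOXP3 KO libraries. The log2 fold change was 3.04 ± 0.158 in untreated cells (adjusted p 2.09e-07, edgeR) and 3.69 ± 0.154 under IFNγ (adjusted p 6.57e-08, edgeR). PLXNB3, a receptor of SEMA5A, had 2 to 5 counts per group and was tested in neither line comparison. PLXNB3 shares 20.4% of its exon bases with SRPK3 on the same strand, so even these counts are uncertain.

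SEMA6A and SEMA6D, membrane ligands of class A plexins, were near the detection limit in CT and well expressed in FOXP3 KO. SEMA6A (chr5:116443555-116574823, minus strand) was at 0.350, 0.556 and 1.05 CPM in CT and 0.194, 1.85 and 0.894 CPM with IFNγ, against 41.5, 88.0 and 45.6 CPM in FOXP3 KO and 54.1, 96.2 and 47.6 CPM with IFNγ. Replicate 12 stood highest in both FOXP3 KO groups, and the lines did not overlap. The log2 fold changes were 6.30 ± 0.405 (adjusted p 1.04e-06, edgeR) and 6.38 ± 0.473 (adjusted p 2.84e-06, edgeR), the former 7.06 without CT replicate 13. Antisense genes share a small part of SEMA6A's exon bases, 268 bases or 2.46% for SEMA6A-AS1 and 58 bases or 0.532% for SEMA6A-AS2. SEMA6A-AS1 averaged 1.34, 1.80, 1.44 and 1.38 CPM in CT, CT with IFNγ, FOXP3 KO and FOXP3 KO with IFNγ, while SEMA6A-AS2 had 1, 6, 49 and 102 counts. The strand setting of the counting is not given in the sources used here, so reads within the shared bases cannot be assigned.

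SEMA6D (chr15:47184101-47774228, plus strand) had 2 counts over the 3 CT libraries and none in CT with IFNγ. It was at 22.8, 25.8 and 14.0 CPM in FOXP3 KO and at 21.3, 27.6 and 13.1 CPM with IFNγ. All 6 FOXP3 KO libraries were far above all 6 CT libraries. The ratio from summed counts was 694 (95% counting interval 192 to 5741) in untreated cells, and with IFNγ SEMA6D was at least 193-fold higher in FOXP3 KO, taking a floor of 3 counts over the CT group. The fitted log2 fold change of 9.21 became 11.42 without CT replicate 13, the only CT library with counts.

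SEMA3E, the ligand of PLXND1 (chr7:83363238-83649139, minus strand), was at 0, 0.0795 and 0.105 CPM in CT and had 1 count in CT with IFNγ. It was at 3.35, 1.88 and 2.13 CPM in FOXP3 KO and at 4.89, 0.535 and 2.07 CPM with IFNγ. The lines did not overlap, but the level in FOXP3 KO was low and uneven. The ratios from summed counts were 35.6 (95% counting interval 14.9 to 111.4) and 83.8 (14.8 to 3333). The fitted log2 fold changes were 5.02 and 6.09, with values of 5.93 without CT replicate 13, 8.18 without CT + IFNγ replicate 13 and 5.20 without FOXP3 KO + IFNγ replicate 11.

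SEMA3F, the secreted ligand that prefers NRP2, was at 7.59, 7.87 and 5.86 CPM in CT, 2.42, 3.92 and 5.87 CPM in CT with IFNγ, 11.8, 21.7 and 14.8 CPM in FOXP3 KO, and 8.98, 11.1 and 14.9 CPM in FOXP3 KO with IFNγ. No FOXP3 KO library was as low as the highest CT library of the same treatment, and the log2 fold changes were 1.19 ± 0.245 (adjusted p 0.00358, edgeR) and 1.53 ± 0.332 (adjusted p 0.00519, edgeR). SEMA5B, a class 5 ligand, was at 0.175, 0.159 and 0 CPM in CT, 0.194, 0.231 and 0.0559 CPM in CT with IFNγ, 0.817, 2.87 and 0.519 CPM in FOXP3 KO, and 0.201, 1.28 and 0.648 CPM in FOXP3 KO with IFNγ. Its call in untreated cells (log2 fold change 3.89 ± 1.04, adjusted p 0.0151, edgeR) was lost without FOXP3 KO replicate 12, where the value was 2.87 with an adjusted p of 0.0653, and without CT replicate 13, where it was 2.98 with 0.0557. Without CT replicate 11 the value was 4.77.

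**Figure D3:**
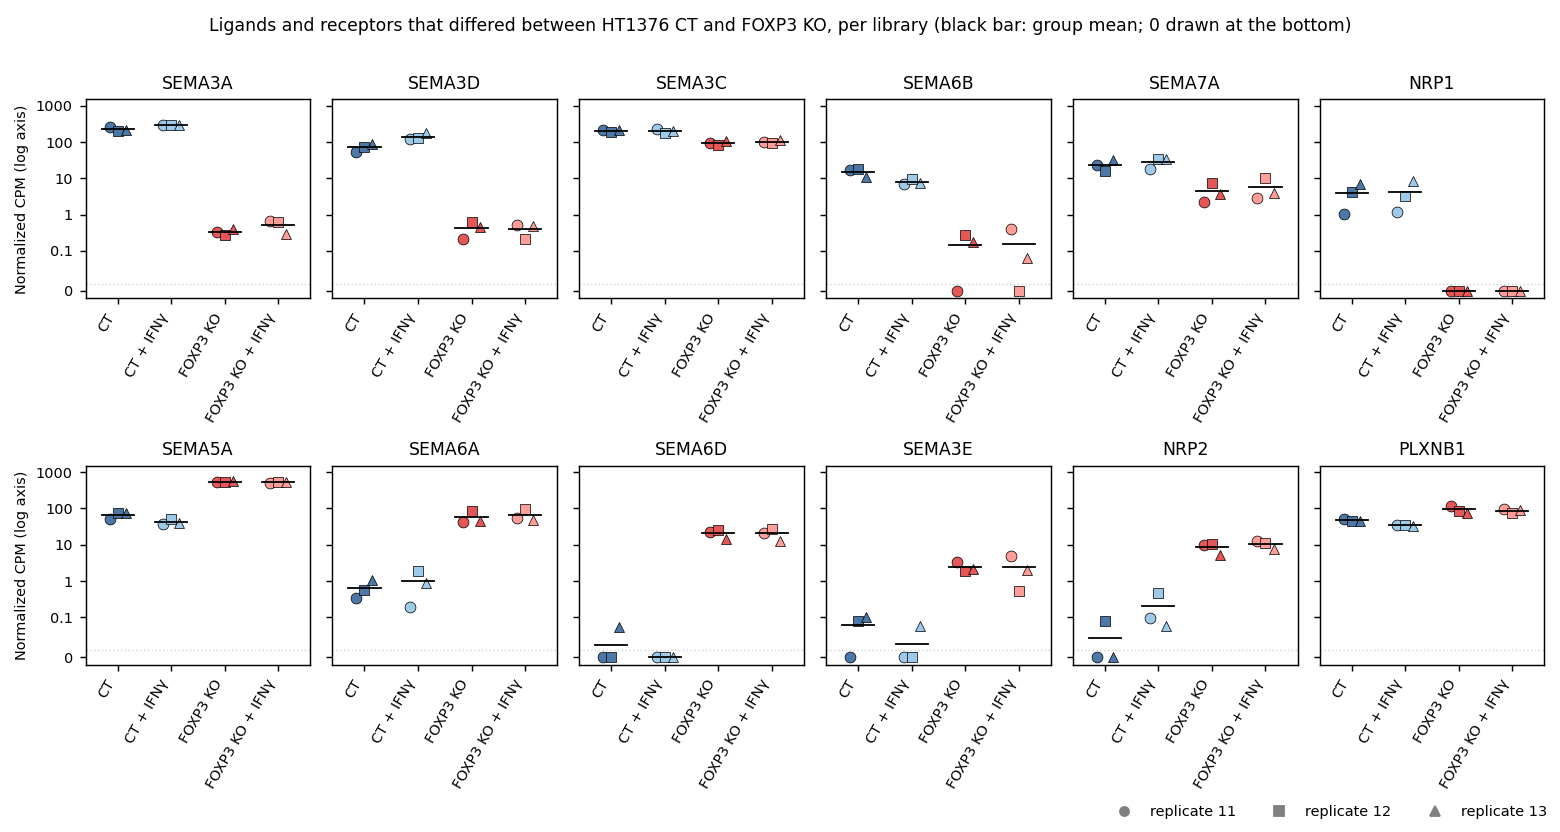
Normalized CPM of 10 ligands and receptors with large differences, with SEMA3C and PLXNB1 for comparison, on a log axis with 0 drawn at the bottom; symbols give the replicate number and the black bar the group mean of 3 libraries. SEMA3A and SEMA3D are above 54 CPM in every CT library and below 1 CPM in every FOXP3 KO library, and NRP1 is at 0 in all 6 FOXP3 KO libraries.

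Both neuropilins differed between the lines, in opposite directions. NRP1, the co-receptor of SEMA3A and of VEGF (chr10:33177492-33336262, minus strand), was at 1.05, 4.13 and 6.99 CPM in CT and at 1.16, 3.23 and 8.66 CPM in CT with IFNγ. It had no count in any FOXP3 KO library, which makes it at least 85.6-fold lower in untreated cells and at least 102-fold lower under IFNγ, taking a floor of 3 counts over the FOXP3 KO group. Within CT, replicate 11 was the lowest and replicate 13 the highest library with and without IFNγ. The fitted log2 fold changes were -9.36 (adjusted p 7.21e-04, edgeR) and -9.02 (adjusted p 9.30e-04, edgeR), and -8.37 and -7.86 without CT replicate 13 or CT + IFNγ replicate 13. Flanking genes were picked as the nearest protein-coding genes with at least 120 counts over all libraries, here ITGB1 and PARD3. They were at 822 and 18.3 CPM in CT and 521 and 61.8 CPM in FOXP3 KO.

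NRP2, the co-receptor of SEMA3F and of VEGFC (chr2:205681990-205798133, plus strand), had 1 count over the CT libraries and 4 with IFNγ. It was at 10.02, 10.7 and 5.24 CPM in FOXP3 KO and at 12.7, 11.0 and 7.52 CPM with IFNγ. Every FOXP3 KO library was above every CT library. The ratio from summed counts was 581 (95% counting interval 104 to 23006) in untreated cells and 77.5 (30.1 to 285.3) under IFNγ. The fitted log2 fold changes were 8.67 (adjusted p 4.25e-06, edgeR) and 6.30 (adjusted p 9.58e-06, edgeR), with values of 10.55 and 7.74 without CT replicate 12 or 13, and of 7.10 and 5.62 without CT + IFNγ replicate 12 or 13.

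Of the plexins, PLXND1, the receptor of SEMA3E, and PLXNB1, the receptor of SEMA4D and a partner of MET and ERBB2, were higher in FOXP3 KO. PLXND1 was at 23.0, 14.7 and 22.6 CPM in CT and at 46.0, 49.0 and 59.4 CPM in FOXP3 KO, and at 6.79, 7.39 and 6.65 against 28.1, 32.9 and 38.6 CPM under IFNγ. PLXNB1 was at 52.3, 44.7 and 46.5 CPM in CT and at 119, 87.2 and 76.6 CPM in FOXP3 KO, and at 35.3, 34.9 and 33.6 against 95.9, 73.1 and 90.4 CPM under IFNγ. Neither gene overlapped between the lines. The log2 fold changes of PLXND1 were 1.36 ± 0.180 (adjusted p 1.90e-04, edgeR) and 2.32 ± 0.184 (adjusted p 4.65e-06, edgeR), and those of PLXNB1 0.99 ± 0.161 (adjusted p 7.96e-04, edgeR) and 1.37 ± 0.140 (adjusted p 2.98e-05, edgeR).

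PLXNA3, a receptor that works with NRP2 for SEMA3F, was lower in FOXP3 KO. It was at 13.3, 18.3 and 11.4 CPM in CT, 10.48, 15.7 and 9.78 CPM in CT with IFNγ, 3.74, 4.30 and 2.25 CPM in FOXP3 KO, and 1.74, 4.92 and 2.14 CPM in FOXP3 KO with IFNγ. The lines did not overlap, and the log2 fold changes were -2.06 ± 0.282 (adjusted p 2.37e-04, edgeR) and -2.02 ± 0.394 (adjusted p 0.00264, edgeR). PLXNA4, a partner of NRP1 for SEMA3A, stayed under 1 CPM on average in every group, with 69 and 11 counts in CT without and with IFNγ and 2 and 0 counts in FOXP3 KO. Its ratio from summed counts was 26.4 (95% counting interval 7.03 to 222.0) in untreated cells, and it was at least 6.21-fold lower under IFNγ, taking a floor of 3 counts over the group. Under IFNγ the call of PLXNA4 (adjusted p 0.0297, edgeR) was lost with replicate number as a block (0.0722) and without FOXP3 KO + IFNγ replicate 11 or 13 (0.0674 and 0.0891). In untreated cells its log2 fold change of -4.42 became -7.16 without FOXP3 KO replicate 11, the only FOXP3 KO library with counts.

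The remaining receptors differed less between the lines. PLXNA2 differed by 0.04 ± 0.104 (SE, log2) in untreated cells and by 0.35 ± 0.128 under IFNγ, PLXNB2 by -0.28 ± 0.117 and 0.20 ± 0.125, and PLXNA1, a receptor of SEMA6D, by -0.44 ± 0.156 and -0.18 ± 0.192. None of these 6 values passed edgeR's test (adjusted p 0.0503 to 0.534 outside PLXNA2 in untreated cells, which had 0.816). With replicate number as a block 3 of the 6 passed: PLXNA1 (-0.44, adjusted p 0.00293) and PLXNB2 (-0.28, adjusted p 0.0359) were lower in untreated FOXP3 KO cells, and PLXNA2 (0.35, adjusted p 0.00964) was higher under IFNγ. That fit called 21 of 30 members in untreated cells, against 36.6% of all genes, and 18 of 30 under IFNγ, against 34.0%. It treats same-numbered libraries of both lines as matched, which was left undecided. Of 12 alternative settings PLXNA2 passed in 6 under IFNγ and PLXNA1 in 3 in untreated cells, and PLXNB2 passed with the block alone. PLXNC1, the receptor of SEMA7A, had 1 to 11 counts per group and was called in neither comparison.

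Among the ligands, SEMA4C, SEMA4D, SEMA4F and SEMA6C were detected in every library and were called in neither line comparison. Their log2 fold changes lay between -0.32 (SEMA6C under IFNγ) and 0.35 (SEMA4C in untreated cells). SEMA4C, the ligand of PLXNB2, was at 20.1 and 15.8 CPM in the FOXP3 KO replicates 12 without and with IFNγ, and between 5.38 and 9.99 CPM in each of the other 10 libraries. SEMA4D, the ligand of PLXNB1, was steady, between 19.0 and 29.5 CPM in all 12 libraries. SEMA3G and SEMA4G had 0 to 39 counts per group and were not called. SEMA4G shares 22.9% of its exon bases with MRPL43 on the opposite strand, so its counts are uncertain as well.

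Markers of another cell type moved with the line. Of 5 fibroblast markers 4 were higher in FOXP3 KO in both comparisons and 1 was lower: COL1A2 rose from 24.9 to 362 CPM, DCN from 1.01 to 106, LUM from 0.199 to 79.6 and COL3A1 from 1.62 to 15.5, while COL1A1 fell from 28.7 to 7.80 CPM in untreated cells. Of 4 endothelial, 6 leukocyte and 4 neuronal markers, 4, 4 and 2 were tested in both comparisons, and none was called higher in FOXP3 KO. Of the tested ones 1, 2 and 2 were lower in untreated cells and 1, 1 and 0 under IFNγ. For comparison with all these lists, 14.0% of all genes tested were called higher and 18.2% lower in untreated cells. Under IFNγ the shares were 13.2% and 15.7%. Of 11 urothelial and epithelial markers 10 were tested, with 2 higher (KRT7 and TP63) and 3 lower (EPCAM, CDH1 and GATA3) in untreated FOXP3 KO cells and 1 higher (KRT7) and 2 lower (EPCAM and CDH1) under IFNγ, and with median log2 fold changes of 0.04 and 0.11. In untreated cells EPCAM averaged 84.9 CPM in CT and 22.3 CPM in FOXP3 KO, and KRT7 643 and 1234 CPM. The part of these genes in the semaphorin results was not tested.

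The second question was what IFNγ did to these genes in each line. In CT 4 of 25 tested members passed, 1 higher (SEMA3D, against 3.53% of all genes called higher) and 3 lower (PLXND1, PLXNB2 and SEMA6B, against 1.82% called lower). With a limit of 2 on the absolute log2 fold change no member passed, against 1.46% of all genes. Of the 8 receptors tested 6 had a negative log2 fold change, with a median of -0.40. The 17 tested ligands had a median of -0.000766 and all genes a median of -0.02. Negative values were also found for 12634 of all 24416 genes tested, and for 6 of 8 tested receptors in FOXP3 KO (median -0.11).

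PLXND1 had the largest called change. Its CT levels of 23.0, 14.7 and 22.6 CPM fell to 6.79, 7.39 and 6.65 CPM, with no overlap, for a log2 fold change of -1.53 ± 0.214 (adjusted p 0.00110, edgeR). SEMA3D rose from 54.9, 75.8 and 86.6 CPM to 120, 129 and 178 CPM, also with no overlap, for 0.996 ± 0.184 (adjusted p 0.00761, edgeR). Apart from the limit on the fold change, both calls stood under each alternative setting tried, including each library left out.

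PLXNB2 and SEMA6B had less secure calls in edgeR fits without the block, while DESeq2 and the fit with replicate number as a block kept both. PLXNB2 was at 119, 135 and 125 CPM in CT and at 94.1, 92.1 and 87.7 CPM with IFNγ, a log2 fold change of -0.45 ± 0.106 (adjusted p 0.0303, edgeR). The groups did not overlap, but the call was lost without any 1 of the 3 CT libraries or without CT + IFNγ replicate 11 or 13, with adjusted p of 0.0660 to 0.137. SEMA6B fell from 17.1, 18.2 and 11.0 CPM to 7.08, 9.92 and 7.38 CPM, a log2 fold change of -0.93 ± 0.241 (adjusted p 0.0482, edgeR). That call was lost without CT replicate 11 or 12 or CT + IFNγ replicate 11 or 13 (adjusted p 0.135 to 0.195), as well as with RLE size factors (0.0521), with a minimum of 10 counts in at least 3 libraries (0.0651) and in a fit of all 12 libraries (0.243).

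Libraries with the same replicate number deviated together within each line, and the fit with that number as a block called 10 of 25 members in CT, where it called 18.6% of all genes. The 6 added were SEMA3A (0.38, adjusted p 5.55e-07) and SEMA4B (0.45, adjusted p 8.73e-04), which were higher with IFNγ, and SEMA5A (-0.66, adjusted p 7.30e-10), SEMA3F (-0.73, adjusted p 0.0167), PLXNB1 (-0.46, adjusted p 2.50e-04) and PLXNA1 (-0.34, adjusted p 0.00266), which were lower. In the fit without the block and otherwise alike, the adjusted p of these 6 were 0.0595 to 0.582. Of 12 alternative settings, block included, SEMA5A passed in 6, SEMA3A in 3 and PLXNB1 in 2, and the other 3 passed with the block alone. DESeq2 called 6 members in CT, against 9.11% of all genes, PLXNB1 (adjusted p 0.0334) and SEMA5A (adjusted p 0.0220) being those added. Of the 6 added with the block, SEMA3A, SEMA5A and PLXNB1 did not overlap between CT with and without IFNγ. SEMA4B, SEMA3F and PLXNA1 did. Among all 24416 genes tested 5831 did not overlap, and among the 31 members 9 did not. In the fit with replicate number as a block the 4 called plexins (PLXND1, PLXNB1, PLXNB2 and PLXNA1) were all lower with IFNγ.

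In FOXP3 KO none of 27 tested members passed edgeR's test for IFNγ, where 0.978% of all genes were called higher and 0.00414% lower. An unadjusted p under 0.05 was found for 1295 of all 24131 genes tested and for 2 of the 27 members, PLXND1 and PLXNA2. DESeq2 called 1 member, against 1.64% of all genes, and the fit with replicate number as a block called 2, against 5.53%. Without the filter on low counts edgeR called 1 member and 355 genes in all, against 237 genes with it. PLXND1 went from 46.0, 49.0 and 59.4 CPM to 28.1, 32.9 and 38.6 CPM without overlap, a log2 fold change of -0.61 ± 0.144 with an adjusted p of 0.161, which was 0.0347 with DESeq2, 0.0195 without the filter on low counts and 1.72e-09 with the block. PLXNA2 went from 192, 183 and 203 CPM to 219, 214 and 282 CPM, 0.33 ± 0.112 with an adjusted p of 0.613, which was 2.52e-06 with the block. SEMA3A (0.61 ± 0.646) and SEMA3D (0.05 ± 0.660) were not called, at 18 and 20 counts over 3 libraries without IFNγ and 25 each with it, and with errors of this size a change like that of SEMA3D in CT was not detectable.

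**Figure D4:**
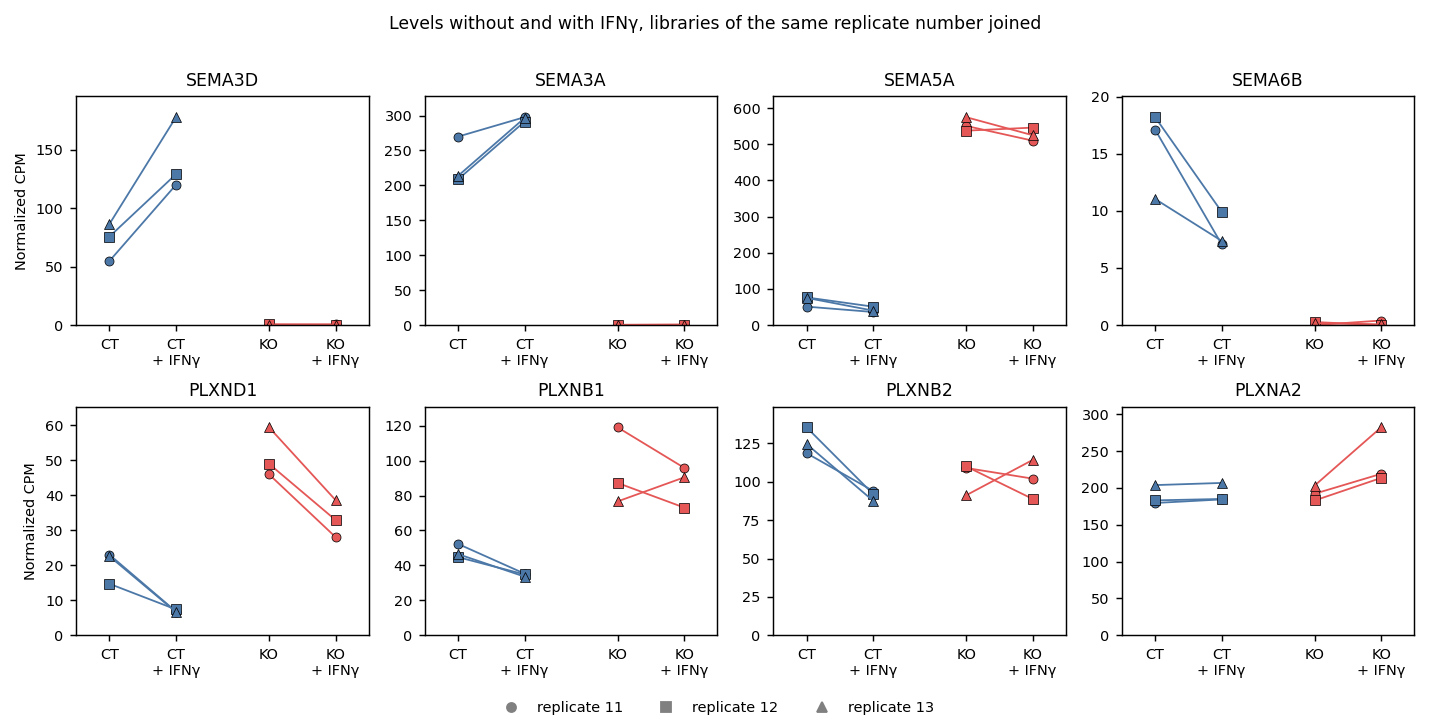
Normalized CPM without and with IFNγ for 8 genes in HT1376 CT (blue) and HT1376 FOXP3 KO (red, labelled KO), with libraries of the same replicate number joined by a line; each panel has its own axis from 0. PLXND1 is lower with IFNγ in all 3 joined pairs of both lines, and SEMA3D is higher in all 3 pairs of CT and below 1 CPM in FOXP3 KO.

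A single fit of the 12 libraries asked, through its interaction term, if IFNγ had unequal effects in CT and FOXP3 KO. None of 31 members passed edgeR's test. Of all genes, 0.00360% were called with a higher and 0.108% with a lower IFNγ effect in FOXP3 KO. An unadjusted p under 0.05 was found for 1727 of all 27806 genes tested and for 3 of the 31 members (PLXNB2, PLXND1 and SEMA5A). DESeq2 called none, against 1.12% of all genes. With replicate number as a block 2 members passed, against 1.21% of all genes: the IFNγ effect was higher, that is less negative, in FOXP3 KO for PLXND1 by 0.95 (log2, adjusted p 0.0210) and for SEMA5A by 0.61 (adjusted p 0.0363). That block treats CT and FOXP3 KO libraries of the same number as matched, and such pairing between lines was left undecided. The PLXND1 difference was 0.92 ± 0.263 and that of SEMA5A 0.61 ± 0.211 without the block (adjusted p 0.424 and 0.665, edgeR). Without the filter on low counts PLXND1 passed as well (0.93, adjusted p 0.0459), in a fit that called 294 genes, against 31 with the filter.

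Of the members, 4 lie along 1 stretch of chromosome 7, in the order SEMA3C, SEMA3E, SEMA3A and SEMA3D, all on the minus strand. Of these 3 were lower in FOXP3 KO and SEMA3E, which lies between SEMA3C and SEMA3A, was higher. PCLO, which encodes a presynaptic scaffold and lies between SEMA3C and SEMA3E, was detected in both lines, at 30.1 CPM in CT and 45.0 CPM in FOXP3 KO. HGF, the ligand of MET, and CACNA2D1, a calcium channel subunit, in the same stretch had 0 to 29 counts per group.

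Promoters were read from RefSeq (GRCh38.p14) as the 250 bases before and 50 after a gene's start, and 27 of the 31 members matched. NRP1, SEMA3A, SEMA6A and SEMA6B did not. Both strands were searched for the forkhead words ATAAACA and ACAAACA as well as GTAAACA and also GCAAACA, for the IFNγ-activated site TTCNNNGAA and for the interferon response core TTCNNTTTC. Forkhead words were in 3 member promoters (SEMA3D, SEMA3E and SEMA5B, or 11.1%) and in 15.2% of all 27305 promoters. The IFNγ-activated site was in 1 (SEMA3E, 3.70%) and in 7.88% of all, and the interferon response core in 2 (PLXNC1 and SEMA4D, 7.41%) and in 8.29% of all. Windows of the SEMA3D and SEMA3E promoters are given because these genes differed between the lines in opposite directions and both hold a forkhead word. That of SEMA5B is given because it is the remaining match. The words are in capitals, and each window is read 5′ to 3′ on the minus strand that the gene uses:
SEMA3D, chr7:85187225-85187254: gccctgtcctgATAAACAtccgtcagcgct
SEMA3E, forkhead word, chr7:83649101-83649130: tgaactttcctGTAAACAgccactgacaga
SEMA3E, IFNγ-activated site, chr7:83649147-83649176: ccagaaatacTTCCTAGAAacagcaagtac
SEMA5B, chr3:123028592-123028621: cacttaaacttGTAAACAattcggcctcgc
These are matches of letters only. SEMA3D was lower and SEMA3E and SEMA5B were higher in untreated FOXP3 KO cells, while for IFNγ SEMA3E had too few counts to be tested in CT and was not called in FOXP3 KO (0.06 ± 0.590, log2).

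Co-receptors that share ligands or signals with this family also differed between the lines. Of 15 co-receptors and their ligands, 13 were tested in untreated cells, with 4 higher and 4 lower in FOXP3 KO, against 14.0% and 18.2% of all genes, and 12 under IFNγ, again with 4 and 4, against 13.2% and 15.7%. FLT1, a VEGF receptor, was at 0.409, 0.159 and 0.210 CPM in CT, 0, 0.462 and 0.391 CPM in CT with IFNγ, 123, 567 and 88.9 CPM in FOXP3 KO, and 148, 632 and 91.9 CPM in FOXP3 KO with IFNγ. Replicate 12 was far above the other two in both FOXP3 KO groups, and the lines did not overlap. The log2 fold changes were 9.98 (adjusted p 1.30e-05, edgeR) and 10.06 under IFNγ (adjusted p 2.38e-05), and 8.72 and 8.77 without that replicate. Under IFNγ the value was 11.01 without CT + IFNγ replicate 13 and 9.35 with replicate number as a block. L1CAM, a neural adhesion molecule that associates with NRP1, averaged 0.683 and 52.8 CPM, with 6.32 (adjusted p 1.83e-07, edgeR) and 8.65 (adjusted p 6.57e-08), which were 7.04 without CT replicate 11 and 9.97 or 7.99 without CT + IFNγ replicate 11 or 13. NRCAM, a relative of L1CAM, was higher in untreated FOXP3 KO cells (4.15, adjusted p 0.0160) from 2 counts in CT and 32 in FOXP3 KO, but not without FOXP3 KO replicate 11 (3.48, adjusted p 0.0939), and its value was 6.27 without CT replicate 13.

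Among the lower co-receptors and ligands, VEGFC, a lymphatic growth factor that binds NRP2, averaged 24.5 CPM in CT and 0.0671 CPM in FOXP3 KO, with log2 fold changes of -8.20 (adjusted p 5.02e-08, edgeR) and -8.28 (adjusted p 2.02e-08). CD72, a B-cell receptor of SEMA4D, was lower in untreated cells (adjusted p 0.0408) from 15 counts in CT and 0 in FOXP3 KO, and KDR, a VEGF receptor, was lower under IFNγ (adjusted p 0.0399) from 24 and 2 counts. Both calls were fragile: CD72 had an adjusted p of 0.0507 to 0.103 without FOXP3 KO replicate 11, 12 or 13 or CT replicate 12 or 13 and 0.0621 with replicate number as a block, and KDR one of 0.0804 to 0.123 without any 1 CT + IFNγ library or without FOXP3 KO + IFNγ replicate 11 or 13. Without FOXP3 KO + IFNγ replicate 12 the log2 fold change of KDR moved from -3.92 to -6.67. MET, the HGF receptor that PLXNB1 associates with, was abundant in both lines and lower in FOXP3 KO, at 1142 CPM in CT and 558 CPM in FOXP3 KO without IFNγ, with log2 fold changes of -1.02 and -0.98. It is named here after its values were seen.

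Of 32 cytosolic effectors 30 were tested in each line comparison, with 2 higher and 12 lower in untreated FOXP3 KO cells, against 14.0% and 18.2% of all genes, and 3 higher and 9 lower under IFNγ, against 13.2% and 15.7%. MRAS, a Ras-type GTPase that plexins act on, averaged 0.705 CPM in CT and 10.47 CPM in FOXP3 KO and was higher in both comparisons, by 3.93 ± 0.389 (log2, adjusted p 2.25e-05, edgeR) and 2.67 ± 0.312 (adjusted p 7.84e-05, edgeR). FES, a tyrosine kinase linked to plexin A1, was lower in untreated cells from 45 counts in CT and 1 in FOXP3 KO (adjusted p 0.0122, edgeR), and DPYSL4, of the collapsin response mediator family, was lower under IFNγ from 16 and 1 counts (adjusted p 0.0410). FES was not called without FOXP3 KO replicate 11 (adjusted p 0.0566) or CT replicate 13 (0.0698), and its log2 fold change went from -4.51 to -6.57 without FOXP3 KO replicate 13. DPYSL4 was not called with replicate number as a block (0.0842), nor without FOXP3 KO + IFNγ replicate 12 or 13 or CT + IFNγ replicate 12 (0.0770 to 0.134), and its log2 fold change went from -4.21 to -5.95 without FOXP3 KO + IFNγ replicate 11. PAK1, a kinase downstream of RAC1, was lower in both comparisons and is likewise named after its values were seen. It averaged 35.4 CPM in CT and 4.53 CPM in FOXP3 KO, with -2.94 (adjusted p 3.57e-07, edgeR) and -3.36 (adjusted p 3.77e-07).

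With IFNγ in CT, VEGFC was higher (0.81, adjusted p 0.00309, edgeR) and the other 11 tested co-receptors and ligands were not called, where 3.53% of all genes were higher. Of 31 tested effectors 3 were lower, against 1.82% of all genes, among them LIMK2, a cofilin kinase (-0.82, adjusted p 0.00161), and FYN, a Src-type kinase downstream of SEMA3A (-0.69, adjusted p 0.00975). The call of FYN was lost without CT + IFNγ replicate 13 (0.0666) or CT replicate 11 (0.0558). In FOXP3 KO none of these genes was called for IFNγ by edgeR, and none had an unadjusted p under 0.05.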

How the data were processed

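RNA from 12 HT1376 libraries (4 groups of 3) was prepared with ribosomal RNA depletion. The authors aligned reads with STAR (2.7.11a per the submitters' processing notes) to hg38, filtered out Mycoplasma reads (Kraken) and deposited gene-level counts from htseq-count, as whole numbers without normalization. The strand setting is not given in the sources used here. Groups follow the labels. Nothing states that libraries came from separate cultures, so p-values measure the spread between libraries, which may be technical.

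Genes with at least 10 counts in total over the 6 libraries compared (12 for the interaction) were tested with edgeR 4.0.16 (R 4.3.3), TMM scaling and the quasi-likelihood test, fitted on all genes, with Benjamini-Hochberg adjusted p under 0.05. The SE printed with a log2 fold change is the absolute log2 fold change divided by the square root of edgeR's F statistic. It is approximate, most of all for genes with few counts. Scripts were tested on simulated data. DESeq2 1.42.0, the study's tool, was run as an alternative, and so were RLE scaling, 2 other filters, replicate number as a block, all 12 libraries in 1 fit and each library left out. Lengths and positions are from GENCODE 44 (hg38), promoters from RefSeq. Counting intervals are exact at 95% and, like floors of 3 counts, cover counting error only. Per-library values are given for SEMA3A and each called member averaging at least 1 CPM in a group, and the rest by range. Pathway genes are named as at most the 3 largest called in each direction per comparison, with MET and PAK1 added after their values were seen. The result of 1 effector is not reported here. The members and all lists were chosen with earlier results of these data known.

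Pairing was checked as the correlation of deviations from group means. Over 17605 genes with at least 120 counts, libraries sharing a number correlated at 0.350 to 0.581 within a line and 0.132 to 0.344 between lines, and those with different numbers at -0.460 to 0.168. Over 27806 genes with at least 10 counts the values for shared numbers were 0.239 to 0.450 and 0.0865 to 0.247. Numbers were taken to pair libraries within a line. Between lines, libraries with different numbers correlated at -0.300 to 0.168 with the first filter and at -0.212 to 0.128 with the second. These ranges overlapped those of shared numbers between lines under both filters, so pairing between lines was left undecided. In the line comparisons and the interaction, the block treats same-numbered libraries of both lines as matched, so those fits assume this undecided pairing. For the interaction, no block separate for each line was fitted. Fits with and without the block are given.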

Additional observations from a re-analysis of the deposited data

Results flagged for a closer look

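For PLXND1 and SEMA5A the effect of IFNγ differed between HT1376 CT and HT1376 FOXP3 KO in the fit with replicate number as a block, by 0.95 for PLXND1 (log2, adjusted p 0.0210) and by 0.61 for SEMA5A (adjusted p 0.0363). PLXND1 was lower with IFNγ in all 3 same-numbered pairs of both lines, with a log2 fold change of -1.58 in CT and -0.61 in FOXP3 KO in the blocked fits. SEMA5A was lower in all 3 pairs of CT (-0.66), and in FOXP3 KO its log2 fold change was -0.05 ± 0.0865 without the block. The blocked interaction fit assumed that same-numbered libraries of both lines are matched, which was left undecided. With the filter on low counts and without the block, edgeR's test called neither difference (adjusted p 0.424 and 0.665). Without that filter it called that of PLXND1 (0.93, adjusted p 0.0459), while the genes called for the interaction rose from 31 to 294. Groups of 3 libraries are too small for the test of single outlying libraries.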

How the results depend on the processing

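The number of called members moved most for IFNγ in CT, from 4 to 10 with the replicate block, to 0 with an absolute log2 fold change over 2, and to between 2 and 5 when each library was left out in turn. For IFNγ in FOXP3 KO it went from 0 to 1 without the filter on low counts, 1 with DESeq2 and 2 with the replicate block, and for the interaction from 0 to 1 without the filter and 2 with the replicate block. The counts of both line comparisons stayed within 1.5 times under every alternative, at 14 to 21 and 15 to 20, and the replicate block gave 21 and 18. Of 41 called pairs of member and comparison, 36 kept direction and call under every alternative that tested them, the fold limit aside. The call was lost under at least 1 for 5 pairs, and none changed sign. Of 102 pairs not called, 14 gained a call under at least 1. Alternatives that did not test a member were left out of these counts. With at least 10 counts in at least 3 libraries, 16 of the 18 calls in untreated cells and 17 of the 19 under IFNγ were kept, the others not being tested. The replicate block changed no call beyond those given with the genes. The cause of the changed counts was not tested. The shallowest library, at 4490684 counts, limits what can be said of genes with few counts, and 3 counts there equal 0.692 CPM.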
